A study of Mus musculus with 3 samples.

Results

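The leukotriene and lipoxygenase pathway was examined as 10 genes, Alox5, Alox5ap, Lta4h, Ltc4s, Ltb4r1, Cysltr1, Cysltr2, Alox15, Alox12 and Pla2g4a, taken by symbol from the 32285 features of the deposited count matrices. The data are 3 single-cell 3′ RNA-seq libraries of dorsal skin from male C57Bl/6 mice aged 8 weeks, in telogen (the resting phase of the hair cycle), each enriched for immune cells with magnetic beads against CD45. WTctrl came from wild-type skin without UVB. WTUV came from wild-type skin given 3 UVB exposures, 1 every 2 days. RPUV had the same UVB schedule in RP mice, which carry Rosa26-rtTA and Tre-Ptgs2 and so overexpress Ptgs2 (Cox-2) in all tissues on doxycycline, rather than in immune cells alone. WTUV and RPUV skin was collected on day 5. Each group is 1 sample with 1 library, RPUV from 1 mouse, so no difference between groups has a replicate check and none was tested. Every interval printed is a 95% counting interval (exact Poisson for a level, exact binomial for a share or ratio) and covers counting error only.

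Leukotrienes are lipid mediators made from arachidonic acid, which cytosolic phospholipase A2 (Pla2g4a) frees from membranes. The 5-lipoxygenase Alox5, helped by the membrane protein FLAP (Alox5ap), converts it to leukotriene A4, from which Lta4h makes leukotriene B4, an attractant of neutrophils read by the receptor Ltb4r1, and Ltc4s makes leukotriene C4, the first of the cysteinyl leukotrienes read by Cysltr1 and Cysltr2. Alox15 and Alox12 are separate lipoxygenases that oxidise arachidonic acid at other carbons. In skin, leukotrienes are best known from leukocytes, and Langerhans cells, the dendritic cell-like macrophages of the epidermis, are a known site of 5-lipoxygenase.

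Cells were kept at under 10% mitochondrial UMIs and over 200 genes, with under 4000 genes, or under 6000 in WTUV, as in the methods of the study. That left 5309, 5225 and 6070 cells in WTctrl, WTUV and RPUV, with 25795684, 64556621 and 29128981 UMIs and a median of 4246, 10557 and 3774 UMIs per cell. The sample names in the labels place WTctrl and RPUV on 1 flow cell and WTUV, which was sequenced more deeply, on another, so the run and the group cannot be told apart in any comparison with WTUV, and RPUV differs from WTctrl in both UVB and genotype. Between 8 and 11 cell barcodes were shared by any 2 libraries. Ptgs2 stood at 14.4, 117 and 486 UMIs per 1000000 UMIs (CPM) over all kept cells of WTctrl, WTUV and RPUV, and at 5.79, 7.43 and 674 CPM in keratinocytes. Cell classes were rebuilt from clusters and marker panels that held none of the 10 genes, so class names mean cells like the named type, and a class of under 50 cells in a library is printed only with its cell count. The macrophage or monocyte class had 1842, 2271 and 2286 cells, the dendritic class 546, 552 and 176, Langerhans cells 75, 84 and 35, neutrophils 11, 55 and 560, and keratinocytes 1209, 527 and 984. All markers of each class were detected in every library where it had 50 cells, and 709, 1027 and 912 cells stayed unnamed.

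The members divided by cell class rather than moving as a block. Alox5 UMIs came mostly from macrophages or monocytes, which held 61.6% of them in WTctrl (58.1 to 65.1), 68.7% in WTUV and 79.6% in RPUV. Dendritic cells held 83.8% of the Alox15 UMIs in WTctrl (75.1 to 90.5), 61.7% in WTUV and 7 of 14 in RPUV. Keratinocytes held 90.3% of the Alox12 UMIs in WTctrl (82.4 to 95.5), 76.6% in WTUV and 47.1% in RPUV. Of the Ltc4s UMIs in WTctrl, 65.3% lay in macrophages or monocytes and 27.6% in the 75 Langerhans cells, which were 1.41% of the kept cells. For Ltb4r1, 46.1% of the UMIs in WTctrl and 38.3% in WTUV lay in clusters that were given no name.

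**Figure D1:**
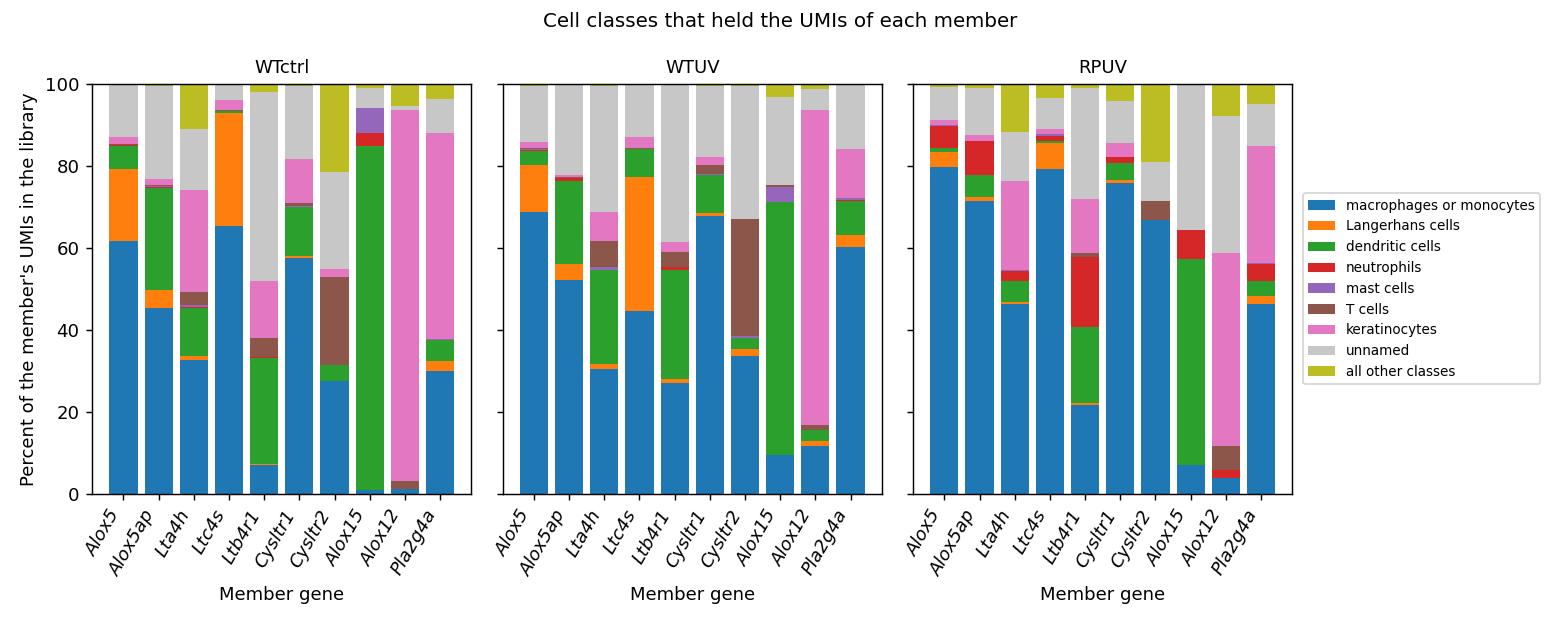
Each bar gives, for 1 library, the percent of a member's UMIs that lay in each cell class, coloured by class, with unnamed clusters in grey and the smaller classes pooled. Macrophages or monocytes held most Alox5 UMIs in all 3 libraries, keratinocytes most Alox12 UMIs in WTctrl and WTUV, and dendritic cells most Alox15 UMIs in WTctrl and WTUV.

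Over all kept cells, none of the 10 members was at least 2-fold higher in WTUV than in WTctrl and 1, Alox12, was at least 2-fold lower, a call that held in 3 of 7 alternatives (log2 scale with 1 CPM added to each level, and at least 20 UMIs in the 2 libraries together), where 2.18% of all features tested were higher and 9.86% lower. Ltb4r1 lay just short of the higher call, at a log2 fold of 0.98, and passed 2-fold in 5 of 7 alternatives. The median log2 fold of the 10 members was 0.37, against -0.03 for all features. In RPUV against WTUV no member was higher and 2, Cysltr2 and Alox15, were lower (10.9% and 4.36% of all features), with a median of -0.29 against 0.05. In RPUV against WTctrl no member was higher and 1, Alox15, was lower (4.64% and 4.59%), with a median of -0.20. These sums mix the level in each class with the number of cells, and fewer cells of a class and less RNA per cell cannot be told apart in them: neutrophils were 0.207%, 1.05% and 9.23% of the kept cells of WTctrl, WTUV and RPUV, and fibroblasts were 6.67%, 0.134% and 3.71%. The values below are therefore given within classes.

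Alox5, the enzyme that starts leukotriene synthesis, spans chr6:116410071-116461178 on the mm10 build (GRCm38, positions from RefSeq). Its level in Langerhans cells was 345 CPM in WTctrl (289 to 408), 241 in WTUV (216 to 268) and 219 in the 35 cells of RPUV (159 to 296). Macrophages or monocytes had 65.4, 74.3 and 78.5 CPM, neutrophils 68.3 CPM in WTUV and 69.8 in RPUV, and dendritic cells 12.4, 9.96 and 13.4 CPM. Within the macrophage or monocyte class the libraries lay further apart in monocytes, which had no Alox5 UMI among the 54 cells of WTctrl (up to 13.3 CPM cannot be seen), 13.2 CPM in WTUV (9.32 to 18.1) and 50.2 in RPUV (32.2 to 74.7). Monocytes of RPUV were 3.81-fold above those of WTUV (2.19 to 6.52) and at least 3.78-fold above those of WTctrl, against a floor of 3 counts per library (lower counting limit 2.85). The first-level cluster 4 of macrophages and monocytes had 10.1, 19.6 and 53.2 CPM. Monocytes came from different clusters, 52 of the 54 cells of WTctrl from cluster 4.4 and 211 of 248 in WTUV and 72 of 83 in RPUV from cluster 4.0. Cluster 4.4 was led by Chil3, Plac8, Ly6c2, Cybb and Lyz2, and cluster 4.0 by H2-Eb1, Chil3, Il1b, Ccr2 and H2-Aa. A comparison of monocytes with WTctrl is therefore also one of cells with unlike markers. Langerhans cells were 5.27-fold above macrophages or monocytes in WTctrl (4.32 to 6.40) and 3.24-fold in WTUV (2.88 to 3.64), while the whole macrophage or monocyte class and neutrophils did not differ beyond their counting intervals in WTUV or RPUV. Keratinocytes, T cells, fibroblasts and sebocytes with at least 50 cells lay between 0.913 and 5.83 CPM. At 2000 UMIs per cell, with shallower cells left out, 44 of 74 Langerhans cells of WTctrl had an Alox5 UMI (59.5%) and 32 of 84 of WTUV (38.1%), against 1 of 1071 and 2 of 412 keratinocytes. Without that thinning the shares were 76.0% and 92.9%, at a median of 4852 and 14555 UMIs per cell, and 0.579% and 2.85% in keratinocytes, at 6117 and 9697.

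Promoter sequences were read from RefSeq for the 3 members on which the comparisons turn, Alox5, Ltc4s and Ltb4r1, each with 250 bases before and 50 bases from the start site on, written 5′ to 3′ on the strand of the gene. Capitals mark GAGGAA or its reverse complement, the core letters of the sites known for the myeloid factor PU.1. Their positions (GRCm38.p6) are chr6:116461129-116461428 on the minus strand for Alox5, chr11:50238483-50238782 on the minus strand for Ltc4s and chr14:55765712-55766011 on the plus strand for Ltb4r1.
Alox5: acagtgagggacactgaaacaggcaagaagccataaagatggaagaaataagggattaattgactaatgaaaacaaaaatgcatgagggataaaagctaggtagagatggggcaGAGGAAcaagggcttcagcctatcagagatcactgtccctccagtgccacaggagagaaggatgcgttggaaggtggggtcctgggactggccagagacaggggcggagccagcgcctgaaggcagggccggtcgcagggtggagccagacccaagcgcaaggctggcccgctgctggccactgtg
Ltc4s: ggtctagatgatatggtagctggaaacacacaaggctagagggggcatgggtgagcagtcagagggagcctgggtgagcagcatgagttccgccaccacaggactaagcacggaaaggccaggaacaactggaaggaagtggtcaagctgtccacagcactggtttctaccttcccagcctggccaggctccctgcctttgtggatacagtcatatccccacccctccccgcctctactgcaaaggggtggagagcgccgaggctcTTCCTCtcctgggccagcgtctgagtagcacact
Ltb4r1: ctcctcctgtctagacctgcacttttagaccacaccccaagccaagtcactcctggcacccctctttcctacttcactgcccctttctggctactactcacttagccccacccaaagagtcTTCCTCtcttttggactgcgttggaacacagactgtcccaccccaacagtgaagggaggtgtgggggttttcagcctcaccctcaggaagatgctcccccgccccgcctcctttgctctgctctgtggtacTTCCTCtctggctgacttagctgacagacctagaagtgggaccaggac
On either strand, the 6 letters stood in 5 of the 7 member genes that had a promoter entry (Alox5, Alox12, Lta4h, Ltb4r1 and Ltc4s) and in 28.3% of all 32851 promoters. The other letters searched on both strands were GGGCGG, held by Alox5, Alox12 and Ltb4r1 and by 35.7% of all promoters, its longer form GGGGCGGGG, held by Alox12 and Ltb4r1 (11.4%), and CCAAT, held by Cysltr2, Lta4h and Pla2g4a (37.4%). GGAAGT was held by Ltb4r1, Ltc4s and Pla2g4a (23.8%), GAGGAAGT, which overlaps both GGAAGT and GAGGAA, by Ltb4r1 (3.2%), and TATAAA by Pla2g4a (13.6%). No member entry held TGACTCA (5.2%), TTCCGGAA (0.712%), TGCGCA (7.76%), CACGTG (7.15%), CAGGTG (20.2%) or TTGCGCAA (0.183%). The motif shown was chosen after these 13 counts were seen, and a match describes letters in these windows only.

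Alox5ap, the partner that presents arachidonic acid to Alox5 (chr5:149265004-149288153), was a gene of myeloid cells in each library. Its level was 672 CPM in macrophages or monocytes of WTctrl (654 to 692), 732 in WTUV (722 to 742) and 1106 in RPUV (1087 to 1125). RPUV was therefore 1.51-fold above WTUV (1.48 to 1.54) and 1.64-fold above WTctrl (1.59 to 1.70), short of 2-fold. Neutrophils stood at 1525 CPM in WTUV and 1662 in RPUV, Langerhans cells at 1195, 1008 and, in 35 cells, 1087, and dendritic cells at 769, 767 and 956. Every myeloid class except mast cells, with 298 CPM in WTUV, was above 600 CPM wherever it had 50 cells, while keratinocytes had 19.2, 34.1 and 40.0 CPM and T cells 26.8 and 14.1. Keratinocytes were 2.09-fold higher in RPUV than in WTctrl (1.70 to 2.57). Their 40.0 CPM in RPUV stood beside 34.7 in fibroblasts, 29.1 in sebocytes, 63.7 in pericytes or smooth muscle cells and 87.3 in Schwann cells of that library. Within the dendritic class, the 26 and 39 cells with markers of mature dendritic cells had 136 and 177 CPM in WTctrl and WTUV, against 763 and 793 in type 2 and 965 and 853 in type 1 dendritic cells.

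**Figure D2:**
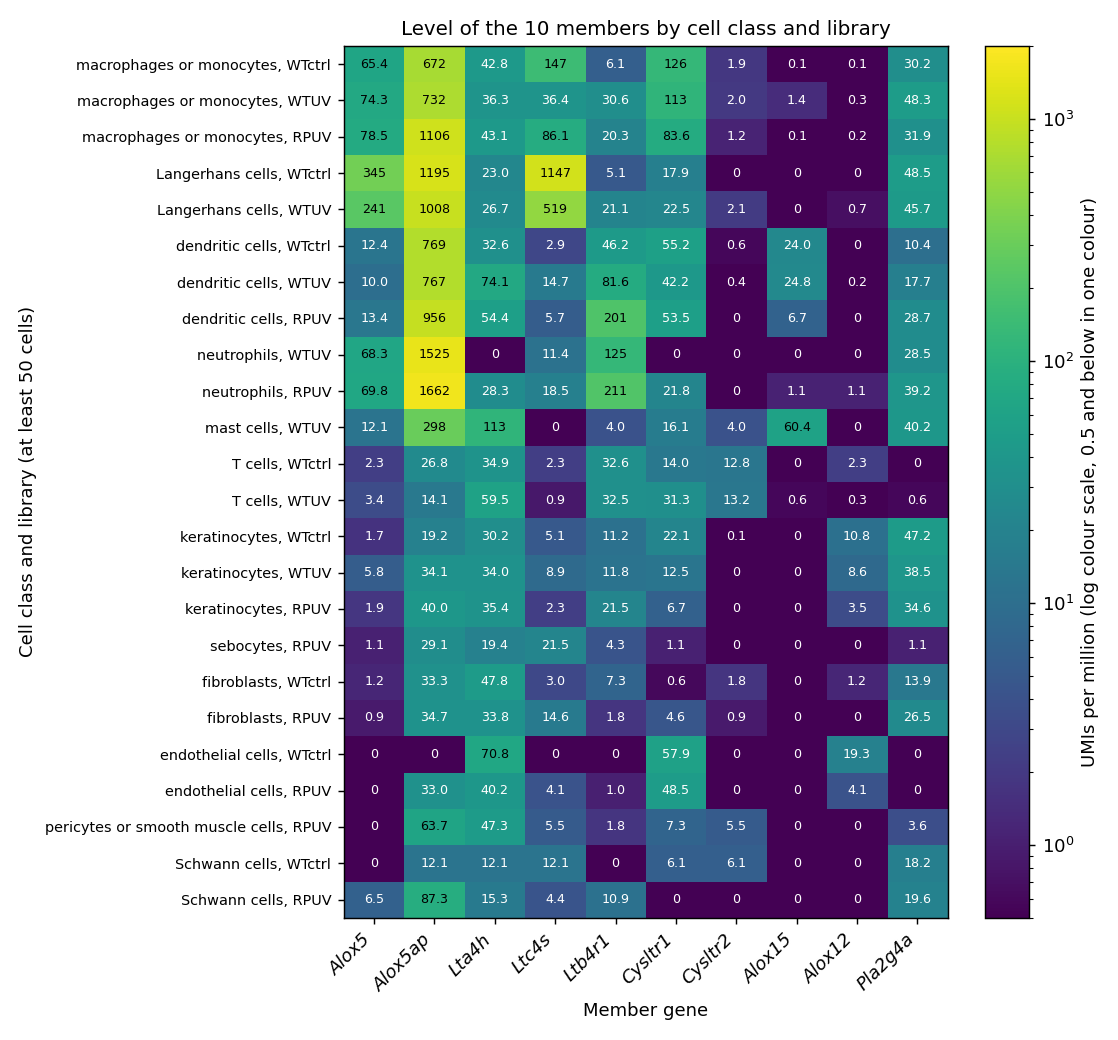
Rows are cell classes in each library with at least 50 cells, columns are the 10 members, and each cell gives the level in CPM, coloured on a log scale. Alox5 and Ltc4s peaked in Langerhans cells (345 and 1147 CPM in WTctrl), Alox15 was seen mostly in dendritic and mast cells, and Alox12 mostly in keratinocytes.

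Ltc4s, the synthase that couples leukotriene A4 to glutathione (chr11:50236461-50238532), was examined next. Langerhans cells had 1147 CPM in WTctrl (1043 to 1258), 519 in WTUV (482 to 558) and 429 in the 35 cells of RPUV (342 to 531). Macrophages or monocytes had 147 CPM in WTctrl (138 to 156), 36.4 in WTUV (34.2 to 38.7) and 86.1 in RPUV (80.9 to 91.4). WTctrl was the highest library in both classes taken whole. Different clusters held most of the Langerhans cells, as cluster 20.1 had 39 of 75 in WTctrl and 11 of 84 in WTUV. WTUV was the lowest in macrophages, and in Langerhans cells its interval overlapped that of RPUV. Langerhans cells of WTUV were 2.21-fold below those of WTctrl (1.96 to 2.49), and as the level in macrophages was lower too, the gap between the classes was 7.79-fold in WTctrl (6.96 to 8.71) and 14.3-fold in WTUV (12.95 to 15.7). At 2000 UMIs per cell, 63 of 74 Langerhans cells had an Ltc4s UMI in WTctrl (85.1%) and 58 of 84 in WTUV (69.0%), against 8 of 1071 keratinocytes of WTctrl and 4 of 412 of WTUV. At full depth these shares were 97.3% and 100% of Langerhans cells and 1.99% and 3.42% of keratinocytes.

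Within macrophages, Ltc4s was highest in 1 cluster, and it was lower in WTUV in all 4 that could be compared, though not within subcluster 2.1. The clusters are the first-level ones that held at least 50 cells of the class in each library (chosen after the data were seen), and Ltc4s took no part in making them. Cluster 1, led by Retnla, F13a1, Folr2 and Lyve1 in its largest WTctrl part, had 384 CPM of Ltc4s in WTctrl (616 cells, 358 to 412), 135 in WTUV (502 cells, 125 to 145) and 234 in RPUV (744 cells, 218 to 250.8). Its WTUV cells were 2.85-fold below WTctrl (2.57 to 3.16), and its RPUV cells were 1.73-fold above WTUV (1.57 to 1.92) and 1.64-fold below WTctrl (1.49 to 1.81). Clusters 0, 2 and 4 had 49.8, 63.5 and 22.7 CPM in WTctrl, 14.9, 14.0 and 7.41 in WTUV and 28.8, 30.1 and 23.4 in RPUV. WTUV was below WTctrl by 3.34-fold in cluster 0 (2.67 to 4.19), 4.55-fold in cluster 2 (3.29 to 6.25) and 3.06-fold in cluster 4 (1.61 to 5.64). Of the subclusters with at least 50 cells in both libraries, 2.1 was not lower in WTUV, with 56.2 CPM in WTctrl and 61.6 in WTUV. Subclusters 0.0, 0.2 and 4.1 were lower, at 55.2, 29.2 and 31.6 CPM in WTctrl and 29.6, 16.5 and 6.93 in WTUV. Subclusters 2.2 and 2.3 had 1.34 and 4.93 CPM in WTUV, and held 3 and 2 cells of WTctrl. The 18 UMIs of WTctrl in cluster 4 came from 4 of its 160 cells (2.50%), against 18 of 332 cells in WTUV (5.42%) and 17 of 167 in RPUV (10.2%), so the share of cells there did not follow the CPM. Monocytes alone had no Ltc4s UMI in WTctrl, where up to 13.3 CPM cannot be seen, 7.63 CPM in WTUV (22 UMIs) and 12.6 in RPUV (6 UMIs), so no direction could be given for them against WTctrl. Cluster 1 held 33.4% of the class in WTctrl, 22.1% in WTUV and 32.5% in RPUV, and cluster 2 held 15.3%, 28.9% and 29.4%, so that the make-up of the class moved with the group as well. Different subclusters of each held most of its cells in each library (1.0, 1.1 and 1.2 for cluster 1). The summed CPM of 5 Langerhans cell markers in macrophages was 20.5, 26.5 and 21.6 in WTctrl, WTUV and RPUV, all 5 detected, and its part in the result was not tested.

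Dendritic cells went the other way at a low level of Ltc4s. Different clusters held most type 2 dendritic cells of the libraries: cluster 3.0 had 2 of 442 in WTctrl, 231 of 431 in WTUV and 108 of 160 in RPUV, which applies to each member compared in this class. They had 2.89 CPM in WTctrl (10 UMIs), 14.7 in WTUV (151 UMIs) and 5.73 in RPUV (6 UMIs), and WTUV was 5.10-fold above WTctrl (2.70 to 10.9). Of the 151 UMIs, 59 lay in the 39 mature dendritic cells, at 93.99 CPM (71.5 to 121). Type 2 dendritic cells alone had 3.07 and 10.55 CPM, 3.44-fold apart (1.66 to 8.23). The summed CPM of the 5 Langerhans markers in the dendritic class was 285, 381 and 311 in WTctrl, WTUV and RPUV, highest in WTUV as Ltc4s was, and its part in the result was not tested. Mast cells, a textbook source of leukotriene C4, had no Ltc4s UMI among 113 cells of WTUV, where a count of 0 allows up to 12.1 CPM, none in the 39 cells of WTctrl (up to 63.9 CPM) and 6 UMIs in the 42 cells of RPUV.

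Lta4h, the hydrolase that makes leukotriene B4 (chr10:93453396-93484896), was detected in each class of at least 50 cells except neutrophils of WTUV. In WTctrl its level ran from 12.1 CPM in Schwann cells, from 2 UMIs, to 70.8 in endothelial cells, from 11 UMIs. Macrophages or monocytes had 42.8, 36.3 and 43.1 CPM in WTctrl, WTUV and RPUV, keratinocytes 30.2, 34.0 and 35.4, and fibroblasts 47.8 in WTctrl and 33.8 in RPUV. The clearest difference was in dendritic cells, with 32.6 CPM in WTctrl (26.9 to 39.2), 74.1 in WTUV (68.9 to 79.6) and 54.4 in RPUV (41.2 to 70.5). WTUV was 2.27-fold above WTctrl (1.86 to 2.79), and type 2 dendritic cells alone were 2.24-fold apart (1.81 to 2.80). T cells had 34.9 and 59.5 CPM in WTctrl and WTUV, and mast cells 113 CPM in WTUV (74.9 to 163). In the 55 neutrophils of WTUV no Lta4h UMI was seen, which allows up to 17.1 CPM, and the 560 neutrophils of RPUV had 28.3 CPM (18.5 to 41.5).

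Pla2g4a, which supplies the substrate (chr1:149829618-149961290), was found in myeloid cells, keratinocytes, fibroblasts and Schwann cells. Fibroblasts had 13.9 CPM in WTctrl and 26.5 in RPUV. Schwann cells had 18.2 in WTctrl, from 3 UMIs, and 19.6 in RPUV, from 9 UMIs. Langerhans cells had 48.5 and 45.7 CPM in WTctrl and WTUV, mast cells 40.2 in WTUV and neutrophils 28.5 in WTUV and 39.2 in RPUV. Macrophages or monocytes had 30.2 CPM in WTctrl (26.3 to 34.5), 48.3 in WTUV (45.8 to 51.0) and 31.9 in RPUV (28.8 to 35.3), so that WTUV was 1.60-fold above WTctrl (1.39 to 1.86) and 1.51-fold above RPUV (1.35 to 1.70). The difference was widest in cluster 2, with 32.7, 65.8 and 38.3 CPM, and cluster 4, with 30.2, 58.1 and 37.3. Keratinocytes had 47.2, 38.5 and 34.6 CPM. T cells had none of 859335 UMIs in WTctrl, where up to 3.49 CPM cannot be seen, and 2 UMIs in WTUV. In dendritic cells the order was another, at 10.4, 17.7 and 28.7 CPM, RPUV being 2.76-fold above WTctrl (1.64 to 4.601) on 30 and 36 UMIs.

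Ltb4r1, the high-affinity leukotriene B4 receptor (chr14:55765962-55768492), differed among macrophages by subtype and by cluster. Macrophages with high levels of the Lyve1 group of genes had 0.559, 1.11 and 1.89 CPM in WTctrl, WTUV and RPUV, those with low levels 17.2, 34.2 and 31.4, and monocytes 57.6, 144 and 239. High here is relative: a mean log2 level of the group above the median of the macrophage clusters. Subclusters 0.0 and 0.1, led by Ccl8, passed with scores of 0.2 and 0.5, against 1.33 in subcluster 1.0. The Lyve1-low subclusters were uneven. Subcluster 2.1 had 1.10 CPM in WTctrl and 4.68 in WTUV, and 0.3 had 0.354 in WTUV. Subcluster 4.1 had 45.7, 72.4 and 86.7 CPM in the 3 libraries. Subclusters 2.2, 2.3 and 0.4 had 63.6, 33.0 and 38.9 in WTUV, and 2.0 had 22.8 in RPUV. Monocytes were 4.197-fold above Lyve1-low macrophages in WTUV (3.65 to 4.82) and 7.60-fold in RPUV (5.82 to 9.93), and did not differ beyond counting error from neutrophils, with 125 CPM in WTUV (78.5 to 190) and 211 in RPUV (183 to 243). In the whole class Ltb4r1 was at 6.09 CPM in WTctrl (4.43 to 8.18), 30.6 in WTUV (28.5 to 32.7) and 20.3 in RPUV (17.8 to 23.0). WTUV was thus 5.01-fold above WTctrl (3.70 to 6.95) and RPUV 3.32-fold (2.40 to 4.69). The class held 54 monocytes in WTctrl, 248 in WTUV and 83 in RPUV. The folds of monocytes over WTctrl were 2.49 in WTUV (1.44 to 4.72) and 4.15 in RPUV (2.33 to 8.02). Most of these cells came from clusters with different leading genes, as given for Alox5, so these folds do not compare like cells. In clusters 0 and 1 the level stayed at or under 3.45 CPM in all libraries. In cluster 2 it was 0.963 CPM in WTctrl, from 1 UMI, 39.2 in WTUV and 18.7 in RPUV, and in cluster 4 it was 49.1, 121 and 164.

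**Figure D3:**
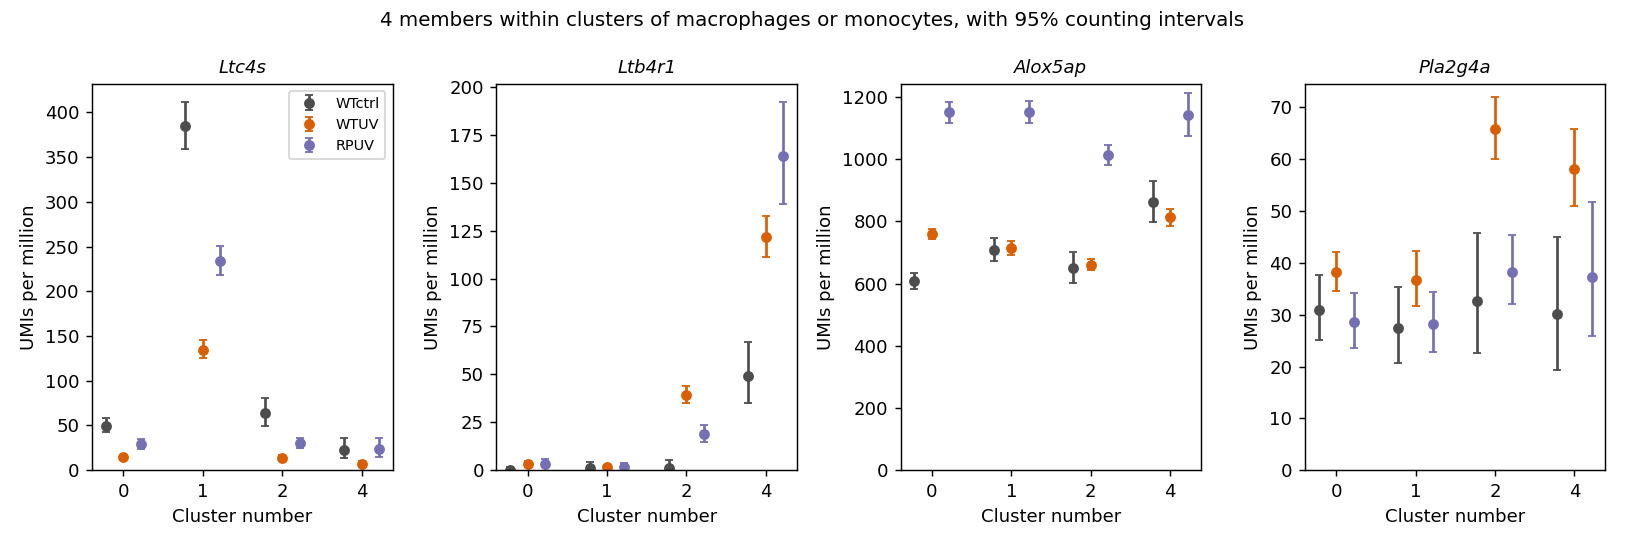
Points give the level of 4 members in CPM within each first-level cluster of macrophages or monocytes, by library, and bars are 95% counting intervals. Ltc4s was highest in cluster 1 and lower in WTUV than in WTctrl in each cluster, Ltb4r1 was near 0 in clusters 0 and 1, and Alox5ap was highest in RPUV in each cluster.

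Dendritic cells carried Ltb4r1 in each library, at 46.2 CPM in WTctrl (39.3 to 54.0), 81.6 in WTUV (76.2 to 87.4) and 201 in RPUV (174 to 230). RPUV was 2.46-fold above WTUV (2.10 to 2.86) and 4.34-fold above WTctrl (3.52 to 5.36). Type 2 dendritic cells held 147 of 160, 806 of 836 and 210 of 210 of these UMIs, and their levels were 56.4, 106 and 224 CPM. At 2000 UMIs per cell, 5.66%, 14.5% and 27.5% of dendritic cells had an Ltb4r1 UMI, and 1.96%, 1.94% and 4.02% of keratinocytes. At full depth the shares were 19.96%, 53.1% and 56.8% of dendritic cells, at medians of 6079.5, 18047.5 and 5617.5 UMIs, and 6.87%, 12.7% and 10.47% of keratinocytes. The summed CPM of 9 macrophage markers in the dendritic class followed the same order, at 910, 1464 and 2205 CPM with 1 of 9 at 0 in WTctrl, and its part in the result was not tested. T cells had 32.6 and 32.5 CPM in WTctrl and WTUV, and keratinocytes 11.2, 11.8 and 21.5, RPUV being 1.82-fold above WTUV (1.38 to 2.41), short of 2-fold.

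Cysltr1, the receptor for leukotriene D4 (chrX:106576509-106603679), was a macrophage gene at 126 CPM in WTctrl (118 to 134), 113 in WTUV (109 to 117) and 83.6 in RPUV (78.5 to 88.9). RPUV was 1.35-fold below WTUV (1.26 to 1.45) and 1.51-fold below WTctrl (1.38 to 1.65). By first-level cluster, RPUV was 1.65-fold below WTUV in cluster 0 (1.47 to 1.87) and 1.40-fold in cluster 1 (1.23 to 1.60). In clusters 2 and 4 the 2 libraries did not differ beyond their counting intervals. Against WTctrl, RPUV was lower in clusters 0, 1 and 2, and not beyond counting error in cluster 4. Dendritic cells had 55.2, 42.2 and 53.5 CPM, endothelial cells 57.9 in WTctrl and 48.5 in RPUV, and T cells 14.0 and 31.3 in WTctrl and WTUV. Among keratinocytes the receptor was higher in the basal class, with 39.8 CPM in WTctrl (33.8 to 46.7), 26.6 in WTUV (21.0 to 33.2) and 10.2 in RPUV (7.17 to 14.2), against 5.40, 2.84 and 3.06 in suprabasal ones. Basal cells of RPUV were 3.89-fold below those of WTctrl (2.69 to 5.76) and 2.60-fold below those of WTUV (1.73 to 3.97). The basal cells too lay in different clusters, with 212 of 680 of WTctrl in cluster 7.0, which held 3 cells of RPUV, and 112 of 539 of RPUV in cluster 7.1. The class also took in clusters 24.0 to 24.3, each with a hair follicle marker (Krt17, Fst or Sox9) among its leading genes. They held 22, 16, 7 and 16 cells of WTctrl and 28, 38, 19 and 9 of RPUV. Cluster 15.3, led by Fgfbp1, Lcn2 and Apoc1, held 3 and 27 cells of these libraries. The part of these clusters in the difference was not tested. Langerhans cells, the richest in Ltc4s, had 17.9 and 22.5 CPM of this receptor in WTctrl and WTUV.

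Cysltr2, the other cysteinyl leukotriene receptor (chr14:73025672-73049114), was close to the detection limit, with 51, 161 and 21 UMIs in all kept cells of WTctrl, WTUV and RPUV. T cells had 12.8 CPM in WTctrl (6.39 to 22.9) and 13.2 in WTUV (9.67 to 17.6), 6.60-fold (2.71 to 15.7) and 6.77-fold (4.46 to 10.2) above macrophages or monocytes, which had 1.94, 1.95 and 1.16. Pericytes or smooth muscle cells had 5.46 CPM in RPUV, the highest class there, from 3 UMIs in 172 cells. In WTctrl they held 7 of the 51 UMIs, in 49 cells. No difference between libraries was detectable at this depth in macrophages.

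Alox15, the 12/15-lipoxygenase (chr11:70344147-70390538), was confined to few cells. In dendritic cells it was at 24.0 CPM in WTctrl (19.1 to 29.7), 24.8 in WTUV (21.8 to 28.0) and 6.69 in RPUV (2.69 to 13.8). WTctrl and WTUV overlapped, and RPUV was 3.71-fold below WTUV (1.77 to 9.32), on 7 UMIs. The 83 UMIs of WTctrl came from 29 of 546 cells, with 48.2% in the 5 highest cells, the 254 UMIs of WTUV from 47 of 552 cells and the 7 of RPUV from 4 of 176. Type 2 dendritic cells had 26.9, 29.5 and 7.46 CPM, and type 1 dendritic cells 0 and 0.493 in WTctrl and WTUV, where a count of 0 allows up to 4.47. Mast cells had 60.4 CPM in WTUV (33.8 to 99.6) from 7 of 113 cells, and 6 UMIs in the 39 cells of WTctrl. In macrophages or monocytes there was 1 UMI in WTctrl, 39 in WTUV and 1 in RPUV, and 34 of the 39 came from 5 cells, so the 10.2-fold ratio of WTUV over WTctrl (1.72 to 412) and the low value of RPUV against WTUV rest on them. The 13 basophils of WTUV held 13 UMIs in 9 cells. Keratinocytes of all 3 libraries had none.

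Alox12, the platelet-type lipoxygenase (chr11:70241457-70255380), lay in suprabasal keratinocytes, which held 84 of its 84 keratinocyte UMIs in WTctrl, 57 of 59 in WTUV and 24 of 24 in RPUV. Basal keratinocytes had 0 UMIs in WTctrl and RPUV and 1 in WTUV, so suprabasal cells were at least 32.3-fold higher in WTctrl and 9.57-fold in RPUV, with a floor of 3 counts per library (lower counting limits 25.7 and 7.20). Suprabasal cells were not compared between libraries, since clusters 9.2 (0, 22 and 80 cells) and 9.4 (8, 10 and 16) were led by the hair follicle markers Krt79 and Krt17. Keratinocytes as a whole had 10.8 CPM of Alox12 in WTctrl (8.62 to 13.4), 8.598 in WTUV (6.55 to 11.1) and 3.48 in RPUV (2.23 to 5.18). WTctrl and WTUV overlapped, and RPUV was 3.10-fold below WTctrl (1.95 to 5.11) and 2.47-fold below WTUV (1.51 to 4.15). Different clusters held these cells, cluster 6.0 having 261, 39 and 21 of them and cluster 6.1 having 4, 48 and 161.

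Counted over the members, macrophages or monocytes of WTUV against WTctrl had 9 of 10 members with at least 20 UMIs, of which 2 (Ltb4r1 and Alox15) were at least 2-fold higher and 1 (Ltc4s) lower, where 3.43% of all features were higher and 1.27% lower. In RPUV against WTUV 1 was higher (Ltc4s) and 1 lower (Alox15, in 3 of 9 alternatives too), with 1.96% and 3.32% of all features. In RPUV against WTctrl 8 members had 20 UMIs, 1 was higher (Ltb4r1) and none lower, with 5.12% and 4.57%. The median log2 fold of all 10 members was 0.15, -0.31 and 0.02 in the 3 comparisons, against 0.03, -0.06 and -0.00038 for all features. In dendritic cells the counts were 2 higher (Lta4h and Ltc4s) and 0 lower in WTUV against WTctrl (4.07% and 1.69% of all features), 1 higher (Ltb4r1) and 2 lower (Ltc4s and Alox15) in RPUV against WTUV (3.04% and 7.9%), and 2 higher (Ltb4r1 and Pla2g4a) and 1 lower (Alox15) in RPUV against WTctrl (5.77% and 8.28%). In keratinocytes they were 1 higher (Alox5) and 0 lower (2.66% and 2.21%), 0 higher and 3 lower (Alox5, Ltc4s and Alox12, with 4.04% and 3.95%), and 1 higher (Alox5ap) and 2 lower (Cysltr1 and Alox12, with 6.07% and 7.39%). In Langerhans cells of WTUV against WTctrl 1 was higher (Ltb4r1, on 32 UMIs) and 1 lower (Ltc4s), with 9.28% and 4.04% of all features. The comparisons share their libraries and are not independent of each other.

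**Figure D4:**
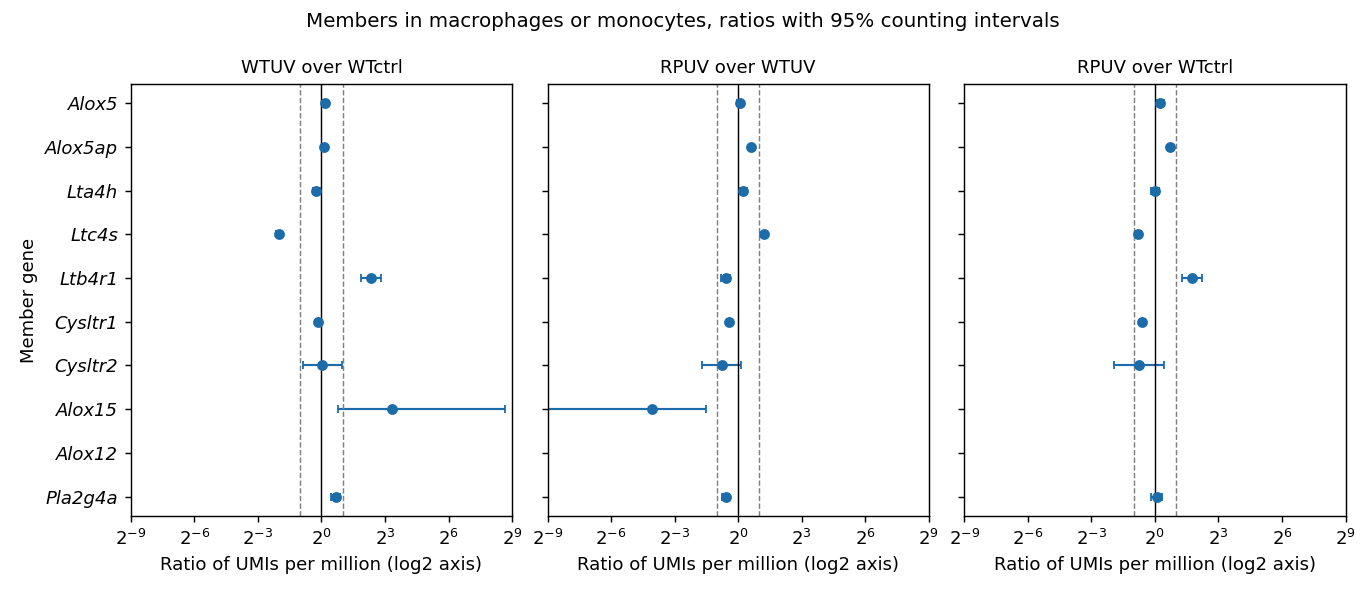
Each point is the ratio of a member's CPM between 2 libraries in macrophages or monocytes, on a log2 axis, with its 95% counting interval. The solid line marks equal levels and the dashed lines 2-fold. Members with under 20 UMIs in the 2 libraries together are not drawn. Ltc4s lay 4.04-fold lower in WTUV than in WTctrl and Ltb4r1 5.01-fold higher, while Alox5, Alox5ap, Lta4h, Cysltr1 and Pla2g4a stayed within 2-fold in each comparison.

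Of 34 further genes of the pathway, 19 had at least 20 UMIs in macrophages or monocytes of WTUV and WTctrl, and 2 were at least 2-fold higher (Dpep2 and Fpr2) and 1 lower (Pla2g2d) in WTUV, where 3.43% and 1.27% of all features were. In RPUV against WTUV 19 had 20 UMIs, 0 were higher and 3 lower (Alox12e, Pla2g2d and Dpep2), with 1.96% and 3.32% of all features. In RPUV against WTctrl 16 had 20 UMIs, 2 were higher (Ptgr1 and Fpr2) and 1 lower (Pla2g2d), with 5.12% and 4.57%. Pla2g2d, a secreted phospholipase A2 known from myeloid cells, had 82.7 CPM in WTctrl, 29.8 in WTUV and 3.39 in RPUV, 2.77-fold lower in WTUV than in WTctrl (2.49 to 3.08) and 8.80-fold lower in RPUV than in WTUV (6.43 to 12.4). Dpep2, a dipeptidase that turns leukotriene D4 into E4, had 8.72, 21.1 and 9.26 CPM in macrophages and 130 and 155 CPM in Langerhans cells of WTctrl and WTUV. Abcc1, the exporter of leukotriene C4, had 86.1, 87.6 and 76.9 CPM in macrophages and 123 and 53.4 in Langerhans cells of WTctrl and WTUV. Ptgr1, which inactivates leukotriene B4, had 33.9, 53.0 and 68.9 CPM, RPUV being 2.03-fold above WTctrl (1.76 to 2.35). Fpr2, a receptor of lipoxin A4 and formyl peptides, had 3.74, 9.91 and 12.2 CPM in macrophages and 240 CPM in neutrophils of RPUV. Neutrophils also held Cyp4f18, a hydroxylase of leukotriene B4, at 216 and 207 CPM in WTUV and RPUV, and Pla2g7 at 603 and 439. Pla2g7, the acetylhydrolase of platelet-activating factor, had 299, 342 and 265 CPM in macrophages.

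Outside the immune classes the list was led by other genes. Alox12e, an epidermal lipoxygenase, had 179 CPM in keratinocytes of WTctrl, 269 in WTUV and 21.0 in RPUV, 12.8-fold lower in RPUV than in WTUV (10.8 to 15.3), and 803, 1202 and 121 CPM in hair follicle keratinocytes. Different clusters held the keratinocytes of each library, as given for Alox12. The hair follicle class also lacks clusters 9.2 and 9.4, which were named suprabasal though led by hair follicle markers. Mgst3, which also conjugates leukotriene A4, had 235, 208 and 260 CPM in keratinocytes and 613 in pericytes or smooth muscle cells of RPUV. Dpep1 had 156 CPM in fibroblasts of WTctrl and 292 in RPUV, Lpcat3, which puts arachidonic acid back into phospholipids, 540 CPM in sebocytes of RPUV, and Pla2g2f 558 CPM in hair follicle keratinocytes of RPUV.

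Across 24 class and library sums and 10729 candidate genes, the genes most like Alox5 in log2 CPM were Lair1 (Pearson r = 0.90), Ncf1 (0.89) and Card9 (0.89), those most like Ltc4s were Cacna1d (0.81), Ccdc106 (0.80) and Cyp4f13 (0.80), and those most like Alox15 were Gpr141b (0.96), Kcne3 (0.85) and Xcr1 (0.84). The sums of a library share its depth and free RNA, and Xcr1 is among the markers used to name type 1 dendritic cells, so these values are a description only.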

How the data were processed

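The deposited matrices hold raw counts of UMIs per gene and barcode, which the authors made with Cell Ranger (version 6.1.1 in the file headers, build mm10 in the submitters' processing notes). How rat Ptgs2 transcripts were counted against the mouse build is not given in the sources used here. From 5977, 6149 and 7240 barcodes, the filters of the study kept 5309, 5225 and 6070. Kept cells were integrated with SCTransform (Seurat 5.3.0) and clustered in 2 rounds (resolution 0.8, then 0.5). Of 132 clusters, 96 were named from 27 marker panels and 36 stayed unnamed. The 10 members and the further pathway genes took no part in clustering or naming. Limits for naming were set in rounds after the clusters had been seen, and the members and gene lists were chosen with earlier results of these data known. Doublets were not removed: Scrublet marked 1.32%, 0.019% and 0.033% of cells, too few to be usable.

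UMIs were summed per class and library and divided by the class total (CPM). Folds printed with an interval are ratios of CPM with nothing added. Log2 folds, their medians and the 2-fold calls used log2 of CPM plus 1. With 1 library per group no test was run. All 10 members were named in every class of at least 50 cells. Further pathway genes were named from 21 that were at least 2-fold apart between libraries in macrophages or monocytes with 50 UMIs, or reached 50 CPM in some class. Dpep2 is the sum of 2 identifiers. Ratios, their intervals and calls were tried on simulated Poisson counts, which carry counting error only. Alternatives were a mean over cells, TMM factors (edgeR 4.0.16), a pseudocount of 10, a limit of 4000 genes, 2000 UMIs per cell, 3 other ways to form classes, no 5% highest Scrublet scores, and all barcodes. RefSeq models of Alox5, Cysltr1, Cysltr2, Alox15 and Alox12 overlap predicted genes, and UMIs shared with those were not separated.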

Additional observations from a re-analysis of the deposited data

Results flagged for a closer look

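Ltc4s went opposite ways in different cell classes under the same contrast, a difference that was not tested since each group has 1 library. In WTUV over WTctrl its log2 fold was -1.99 in macrophages or monocytes and -1.14 in Langerhans cells, and 2.02 in dendritic cells. In RPUV over WTUV it was 1.22 in macrophages or monocytes, -1.23 in dendritic cells and -1.58 in keratinocytes. The dendritic values rest on 10, 151 and 6 UMIs in WTctrl, WTUV and RPUV, and the keratinocyte values on 61 UMIs in WTUV, 45 of them (73.8%) from 5 of 527 cells, and 16 in RPUV.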

How the results depend on the processing

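No paired analysis was possible because each group has 1 library. The 6 medians of the members were recomputed under 48 settings in all, of which 43 stayed within the band of the members' counting intervals. The other 5 were over all kept cells. With a pseudocount of 10 CPM the median was 0.23 for WTUV over WTctrl and -0.073 for RPUV over WTctrl. For RPUV over WTUV it was -0.42 with TMM factors and -0.40 with all deposited barcodes, and for RPUV over WTctrl it was -0.060 at 2000 UMIs per cell. Single members were less stable than the medians. Of 480 recomputed folds of single members, 140 moved outside their counting intervals, as did 318 of 1890 recomputed levels within classes. In macrophages or monocytes, under 9 alternatives the log2 fold of Ltc4s ranged from -2.24 to -1.64 for WTUV over WTctrl and from 0.997 to 1.36 for RPUV over WTUV, and that of Ltb4r1 from 1.33 to 2.62 for WTUV over WTctrl. The log2 fold of Alox15 for WTUV over WTctrl ranged from 0.15 to 1.245 and passed 2-fold under 3 of the 9, and that for RPUV over WTUV ranged from -1.245 to -0.18 and passed 2-fold under 3 of the 9. Over all kept cells, Alox12 for WTUV over WTctrl ranged from -1.14 to -0.14 and passed 2-fold under 3 of 7. Ltb4r1 there, 0.98 with the settings of the report, ranged from 0.78 to 1.12 and passed 2-fold under 5 of 7. Alox5 for WTUV over WTctrl, 0.18 with the settings of the report, ranged from -0.13 to 0.19 and changed sign under 3 of the 9, lowest at 2000 UMIs per cell. Cysltr2 had 51, 161 and 21 UMIs in all kept cells of WTctrl, WTUV and RPUV, and monocytes of WTctrl were 54 cells, which limits what could be seen there.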
